A study of Mus musculus with 13 samples.

Results

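Transcripts of 10 glutathione S-transferase genes were followed in sorted mouse islet cells. The genes were taken by name from the 55421 genes of the count table, and each had 1 entry: Gstp1, Gstp2 and the pseudogene Gstp-ps of the pi class, Gsto1 of the omega class, Gstm1 of the mu class, Gsta4 of the alpha class, Gstt1 of the theta class, the mitochondrial and peroxisomal Gstk1, and the membrane-bound Mgst1 and Mgst3. The study deleted Txnrd1, the gene of cytosolic thioredoxin reductase, in insulin-producing beta cells, and 13 RNA-seq libraries were read from 4 groups. From Txnrd1 fl/fl mice came the knockout-labelled beta cells (n = 3) and the knockout-labelled non-beta cells (n = 3). Control beta cells (n = 4) and control non-beta cells (n = 3) were from Txnrd1 +/+ mice. Both genotypes also carried Ins1 Cre/+ and Rosa26 mTmG/mTmG, so the controls had the Cre and the reporter too. The Cre is driven from the insulin gene Ins1. The membrane reporter turns from Tomato red to GFP green where Cre has acted, and GFP+ cells were sorted as beta cells and Tom+ cells as all other islet cells. The Tom+ cells of Txnrd1 fl/fl mice are therefore a fraction in which the reporter shows no recombination. Mice were on the C57BL/6 background and 10 to 20 weeks old, and their islets were held overnight in medium with 5.5 mM glucose before trypsin dispersal and sorting of living cells. The labels do not say that each library came from a separate animal, so p-values measure the spread between these samples, which may be technical.

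Glutathione S-transferases join the thiol of glutathione to electrophiles such as lipid aldehydes, quinones and drug metabolites, which can then be pumped out of the cell and trimmed. The classes differ in substrates: pi enzymes also return glutathione to oxidised protein thiols, omega enzymes carry out thiol transfer and reduce dehydroascorbate, and the alpha-class enzyme of Gsta4 prefers the lipid aldehyde 4-hydroxynonenal. Many of these genes are known targets of NRF2, a transcription factor that binds antioxidant response elements when its inhibitor KEAP1 is modified by electrophiles. Beta cells are known for low levels of several enzymes that remove hydrogen peroxide.

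Library depth ran between 28.7 M and 36.8 M counts. Ins2, the main insulin gene, took 13.6 to 21.2 % of counts in knockout-labelled beta cells and 20.2 to 22.6 % in control beta cells, and 5 of 8 listed beta-cell markers were lower in the knockout-labelled ones. Non-beta libraries were rich in the glucagon gene Gcg (15.7 to 19.9 %), and their summed delta, PP, acinar, ductal and endothelial markers exceeded those of every beta-cell library, so this fraction is a mixture of cell types. Replicate 3 under the knockout label stood apart in both fractions: its beta library held 0.390 % Gcg against 0.0295 to 0.0682 % in the other beta libraries, and Ins2 took 2.46 % of its non-beta library, where the remaining non-beta libraries had 0.159 to 0.689 %. Txnrd1 itself was higher in knockout-labelled than in control beta cells (571 ± 16.5 and 296 ± 26.7 CPM, counts scaled to library size; SD, n = 3 and 4). That count covers the whole gene, including exons that may remain after recombination, so it does not check the genotype labels.

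The 3 pi-class rows are shown together first, because they share sequence and their reads may not be fully separable. Gstp1 lies at chr19:4035407-4037985 and Gstp2 at chr19:4040285-4046023, both on the minus strand of GRCm38, and Gstp-ps is a processed pseudogene on the minus strand at chr1:192073820-192074450. Over the coding sequence, Gstp2 was 98.1 % identical to Gstp1 (12 of 630 bases differed) and Gstp-ps 97.6 % (15 of 628 aligned bases differed). Of all 100-base stretches of their annotated transcripts, 25.1 % of Gstp1, 46.9 % of Gstp2 and 51.1 % of Gstp-ps also occur in another of these 3 genes. The first 120 coding bases of Gstp1 are printed with the matching stretches of the other 2, in which capitals mark bases that differ from Gstp1 (6 in each); the pseudogene annotation begins 2 bases later. The sequences are from the GENCODE transcripts.
Gstp1: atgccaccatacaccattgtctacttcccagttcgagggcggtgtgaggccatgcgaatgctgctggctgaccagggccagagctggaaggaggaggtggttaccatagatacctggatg
Gstp2: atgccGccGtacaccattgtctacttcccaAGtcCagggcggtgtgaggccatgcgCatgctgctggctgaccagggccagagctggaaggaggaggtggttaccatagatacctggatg
Gstp-ps: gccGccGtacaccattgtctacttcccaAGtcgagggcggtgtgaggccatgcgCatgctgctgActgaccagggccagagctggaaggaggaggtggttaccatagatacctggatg

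Promoters of the neighbours Gstp1 and Gstp2 are shown because the counts of both rows were higher in knockout-labelled beta cells. Their reads may not be fully separable, and how far Gstp2 rose apart from Gstp1 was not tested. The 150 bases before the RefSeq transcript start (GRCm38.p6, chr19:4037913-4038062 for Gstp1 and chr19:4042222-4042371 for Gstp2, minus strand) are printed 5′ to 3′, and capitals mark TGAGTCAGC, a match to the motif TGANTCAGC.
Gstp1: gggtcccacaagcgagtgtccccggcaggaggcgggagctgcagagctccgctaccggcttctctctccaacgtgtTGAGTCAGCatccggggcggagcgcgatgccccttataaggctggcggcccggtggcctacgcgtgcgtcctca
Gstp2: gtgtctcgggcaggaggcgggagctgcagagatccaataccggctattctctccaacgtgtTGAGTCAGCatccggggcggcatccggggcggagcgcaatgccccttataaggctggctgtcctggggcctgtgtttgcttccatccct
The match begins 74 bases before the RefSeq start in Gstp1 and 89 bases before it in Gstp2. Both RefSeq starts lie within the gene spans given above, which are from GENCODE. By those spans, part of the printed Gstp1 bases and all of the printed Gstp2 bases fall inside the gene. The 2 promoter windows of 300 bases were 84.9 % identical over 284 aligned bases. RefSeq promoters were found for 8 of the 10 genes, all but Gstp-ps and Gsta4. On either strand, TGANTCAGC was in 1.2 % of 32851 mouse promoter windows of the same length and the core antioxidant response motif TGACNNNGC in 12.4 %, counted separately, so some windows hold both. Besides Gstp1 and Gstp2, the search found a match in Mgst1, whose promoter held TGACNNNGC on the opposite strand, beginning 56 bases before the start. Both motifs were chosen after the promoters had been read, and a match is a description of the letters, not of binding.

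In knockout-labelled beta cells, 8 of the 9 genes that could be tested were higher than in control beta cells and none was lower. The pi class rose most in absolute level, followed by Gstm1 and Gsto1, while Gstk1 and Gstt1 rose by smaller amounts and Mgst3 did not pass the test. Over all 17525 genes tested, 20.1 % changed at an edgeR adjusted p below 0.05, 10.1 % upward and 9.97 % downward. The median log2 fold change of the 9 genes was 1.62, beside 0.01 over all genes tested. The pi-class rows among the 9 may share reads, so neither the count nor the median rests on 9 independent genes. The tenth gene, Mgst1, had too few counts in beta cells for a test. Gsta4 passed the count minimum through the knockout-labelled libraries alone, so its call and the median that includes it are not independent of its rise. Upward calls made up 50.4 % of all calls, and 69.5 % when counts were scaled by library totals alone; 8 of the 9 genes were higher under both scalings.

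**Figure D1:**
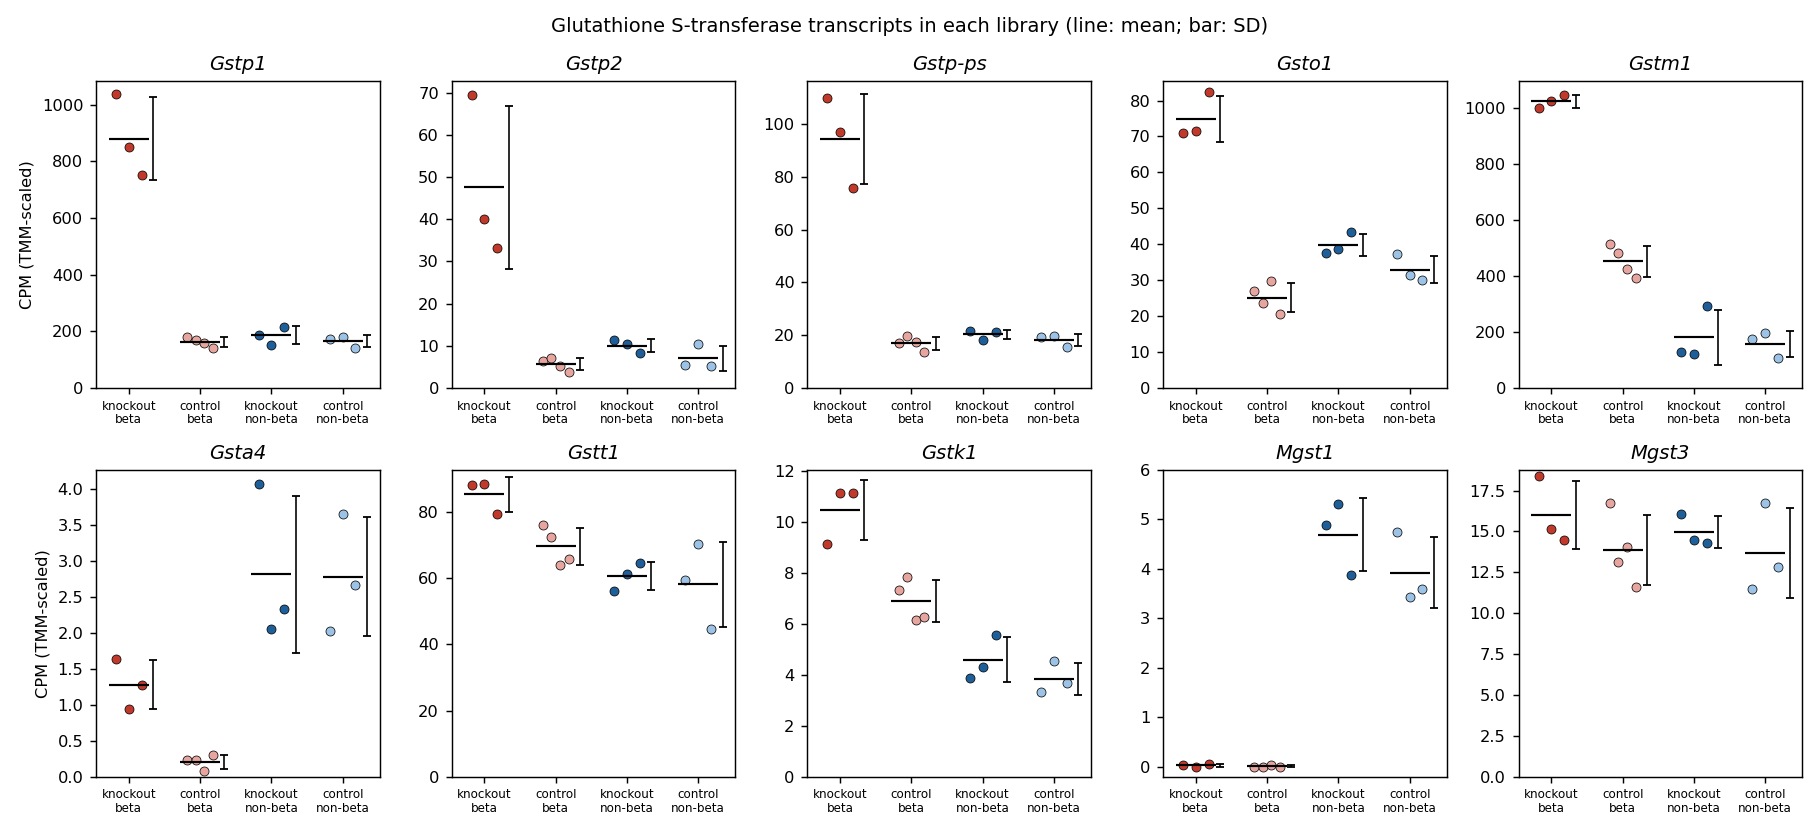
CPM (counts scaled to library size with TMM factors; linear axes starting at 0, except the Mgst1 panel, which extends slightly below it) of each gene in each of the 13 libraries, with points for libraries, lines for group means and bars for SD. In knockout-labelled beta cells Gstp1 lay between 750 and 1038 CPM, and in control beta cells between 141 and 179 CPM.

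Gstp1 encodes the main pi-class enzyme. Knockout-labelled beta cells had 1038, 852 and 750 CPM of it, against 179, 169, 158 and 141 CPM in control beta cells. Every knockout-labelled library was above every control library, as held for 12.7 % of all genes tested. The rise was 5.63-fold (log2 fold change 2.49, SE 0.13, edgeR adjusted p = 4.52e-06).

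Gstp2, the neighbouring pi-class gene, was at 69.5, 40.1 and 33.1 CPM in knockout-labelled beta cells, against 6.39, 7.17, 5.19 and 3.80 CPM in control beta cells. The groups did not overlap, and knockout-labelled replicate 1 was the highest. Its log2 fold change was 3.13 (SE 0.27, edgeR adjusted p = 4.35e-05). Counts assigned to the pseudogene Gstp-ps were at 109.9, 97.3 and 75.9 CPM in knockout-labelled beta cells, against 17.2, 19.6, 17.4 and 13.6 CPM in control beta cells, again without overlap (log2 fold change 2.53, SE 0.15, edgeR adjusted p = 5.59e-06).

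Because reads of the 3 rows may have been exchanged, their counts were also added within each library and the whole table was tested with the sum in their place. The summed row had 37319, 36776 and 32417 counts in knockout-labelled beta cells, against 6198, 5966, 4977 and 5222 counts in control beta cells. The means were 1022 ± 182 CPM (SD, n = 3) in knockout-labelled beta cells and 184 ± 19.5 CPM (n = 4) in control beta cells, a 5.73-fold rise (log2 fold change 2.52, SE 0.13, edgeR adjusted p = 4.48e-06). The sum does not depend on how reads were divided among the 3 rows.

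The division itself differed between rows. Gstp-ps counts were 10.1 to 11.4 % of the Gstp1 count in knockout-labelled beta cells and 9.59 to 11.7 % in control beta cells, ranges that overlapped. In the non-beta libraries the share was 9.87 to 12.1 % under the knockout label and 11.0 to 11.2 % in controls, so it was similar in all 4 groups while the Gstp1 level differed several-fold. Gstp2 counts were 4.42 to 6.69 % of Gstp1 in knockout-labelled beta cells and 2.69 to 4.25 % in control beta cells, without overlap. In non-beta cells that ratio ran over 3.85 to 6.90 % under the knockout label and 3.10 to 5.82 % in controls. These ratios are descriptions, since the counting program and its rule for reads that match several genes are not given in the sources used here.

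**Figure D2:**
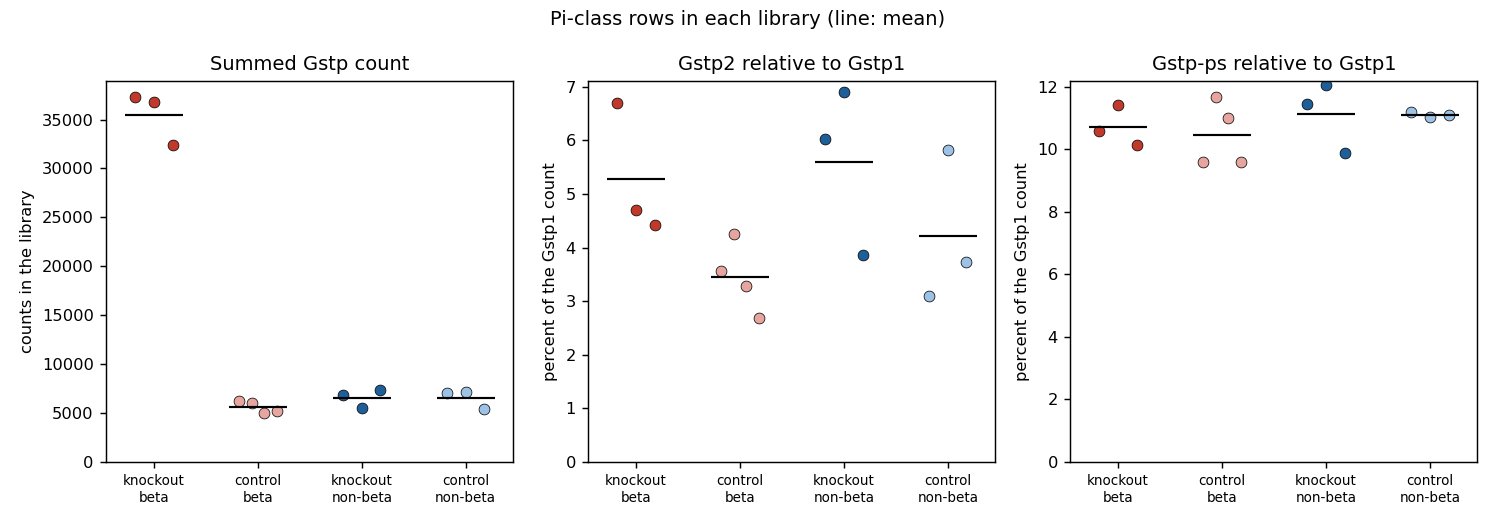
Left, summed counts of the 3 pi-class rows in each library; middle and right, Gstp2 and Gstp-ps counts as a percent of the Gstp1 count in the same library, with lines for group means. The summed count was 32417 to 37319 in knockout-labelled beta cells, and the Gstp-ps share stayed between 9.59 and 12.1 % in all 13 libraries.

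Gsto1, whose omega-class product carries out thiol transfer, lies at chr19:47854970-47864790 on the plus strand. It stood at 71.1, 71.5 and 82.3 CPM in knockout-labelled beta cells, against 26.9, 23.5, 29.8 and 20.5 CPM in control beta cells. The groups did not overlap, and the gap between them exceeded the range within either group. The rise was 3.07-fold (log2 fold change 1.62, SE 0.12, edgeR adjusted p = 1.55e-05).

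Gstm1, the mu-class gene at chr3:108012255-108017973 (minus strand), was at 999.99, 1027 and 1048 CPM in knockout-labelled beta cells, against 516, 482, 425 and 391.99 CPM in control beta cells. The 3 knockout-labelled libraries were close to each other and all above the controls. The rise was 2.33-fold (log2 fold change 1.22, SE 0.10, edgeR adjusted p = 2.22e-05). Of its 100-base stretches, 5.9 % (92 stretches) occur in another annotated gene, in the pseudogene Gstm2-ps1, Gm8834 or Gstm3. Gstm2-ps1 averaged 13.7 ± 0.281 CPM in knockout-labelled beta cells and 5.33 ± 1.03 CPM in control beta cells.

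Gsta4, whose product conjugates 4-hydroxynonenal, was scarce: it had 50, 35 and 48 counts in knockout-labelled beta cells, against 7, 7, 2 and 10 counts in control beta cells. In CPM this was 1.28 ± 0.345 (SD, n = 3) in knockout-labelled beta cells and 0.209 ± 0.0974 (n = 4) in control beta cells. The groups did not overlap, and the log2 fold change was 2.61 (SE 0.39, edgeR adjusted p = 0.00127). Gsta4 is more abundant in the non-beta fraction, and summed alpha-cell markers took 0.0609 to 0.403 % of counts in knockout-labelled beta cells and 0.0426 to 0.0806 % in control beta cells, with Gcg highest in knockout-labelled replicate 3. The 2 PP-cell markers together took 0.0398 to 0.133 % in knockout-labelled beta cells and 0.0154 to 0.0364 % in control beta cells, without overlap. Of these 2, 1 was called higher, as were 10.1 % of all genes tested. Of 5 alpha markers tested, 1 was called higher and 1 lower. Of 3 endothelial markers 1 was higher, and of 3 macrophage markers 1 was lower. No delta, acinar or ductal marker was called. No alpha or PP marker was at 0 in a knockout-labelled beta library. Without replicate 3 the log2 fold change of Gsta4 was 2.63 (edgeR adjusted p = 0.00288). The part of non-beta RNA in these values was not tested.

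Gstk1, which encodes the kappa-class enzyme of mitochondria and peroxisomes, was at 9.10, 11.1 and 11.1 CPM in knockout-labelled beta cells, against 7.30, 7.83, 6.14 and 6.26 CPM in control beta cells. The lowest knockout-labelled value lay above the highest control value. It rose by 0.65 on the log2 scale (SE 0.13, edgeR adjusted p = 0.00602). Gstt1, of the theta class, was at 88.2, 88.6 and 79.4 CPM in knockout-labelled beta cells, against 76.2, 72.5, 64.1 and 65.9 CPM in control beta cells. These groups were separated by a small gap, and the rise was 1.27-fold (log2 fold change 0.34, SE 0.09, edgeR adjusted p = 0.0234). The Gstt1 call was lost when knockout-labelled beta replicate 1 or 2 or control beta replicate 3 was left out (edgeR adjusted p = 0.0912, 0.0885 and 0.0676) and when all groups shared 1 estimate of the spread (0.129).

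Mgst3, a membrane-bound enzyme with glutathione peroxidase activity towards lipid hydroperoxides, was at 18.4, 15.1 and 14.5 CPM in knockout-labelled beta cells, against 16.7, 13.1, 14.1 and 11.6 CPM in control beta cells. The ranges overlapped, and the log2 fold change of 0.25 (SE 0.15) had an edgeR adjusted p of 0.243. Its interval of 2 SE to each side ran from −0.04 to 0.54. Mgst1, the microsomal enzyme, had 1, 0 and 2 counts in knockout-labelled beta cells, against 0, 0, 1 and 0 counts in control beta cells, too few for any comparison by genotype label.

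The authors' deposited table for this comparison lists 7 of the 10 genes, 6 of them with a false discovery rate below 0.05. The share of all its genes below that rate was not counted, and its filter is not given. In the edgeR test above, 20.1 % of all genes passed. The log2 fold changes for Gstp1, Gstp2, Gsto1 and Gstm1 are 2.49, 3.13, 1.62 and 1.22 in the authors' deposited table.

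Non-beta cells, in which the reporter shows no Cre activity, gave no call by genotype label for any of the 10 genes. Over 18908 genes tested the share called was 0 %, with 821 genes at an unadjusted p below 0.05 in edgeR and 25 genes called by DESeq2, none of them among the 10. In the main test all 10 log2 fold changes were above 0, with a median of 0.20 beside −0.0026 over all genes. Gsta4 was at −0.03 with scaling by library totals. Without single libraries Gstm1, Gsta4 and Gstt1 went as low as −0.32, −0.33 and −0.080. The pi-class rows may share reads, so their signs are not independent. Every edgeR adjusted p was 0.999, and the lowest unadjusted p of the 10 was 0.0551, for Gsto1. The summed pi-class row had 6820, 5466 and 7377 counts in knockout-labelled non-beta cells, against 7008, 7165 and 5368 counts in control non-beta cells, which overlapped fully (log2 fold change 0.21, SE 0.16; interval of 2 SE to each side −0.10 to 0.52). Gsto1 was at 37.6, 38.8 and 43.4 CPM in knockout-labelled non-beta cells, against 37.3, 31.5 and 30.1 CPM in control non-beta cells. All 3 knockout-labelled values of Gsto1 were above the controls, as held for 3.9 % of genes, but the gap was narrow (log2 fold change 0.29, SE 0.13, edgeR adjusted p = 0.999).

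Gstm1 in non-beta cells turned on single libraries. It was at 129, 120 and 292 CPM in knockout-labelled non-beta cells, against 174, 195 and 105 CPM in control non-beta cells. Knockout-labelled replicate 3 was above all other non-beta libraries, and it is also the library with 2.46 % Ins2. The related gene Gstm2 had 26.4 CPM in that library and 6.43 to 7.33 CPM in the other 5 non-beta libraries, and in beta cells Gstm1 and Gstm2 were both higher than in non-beta cells. The log2 fold change of Gstm1 was 0.21 (SE 0.36) with all libraries, −0.32 without knockout-labelled replicate 3 and −0.02 without control replicate 4. The part of beta-cell RNA in these values was not tested.

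**Figure D3:**
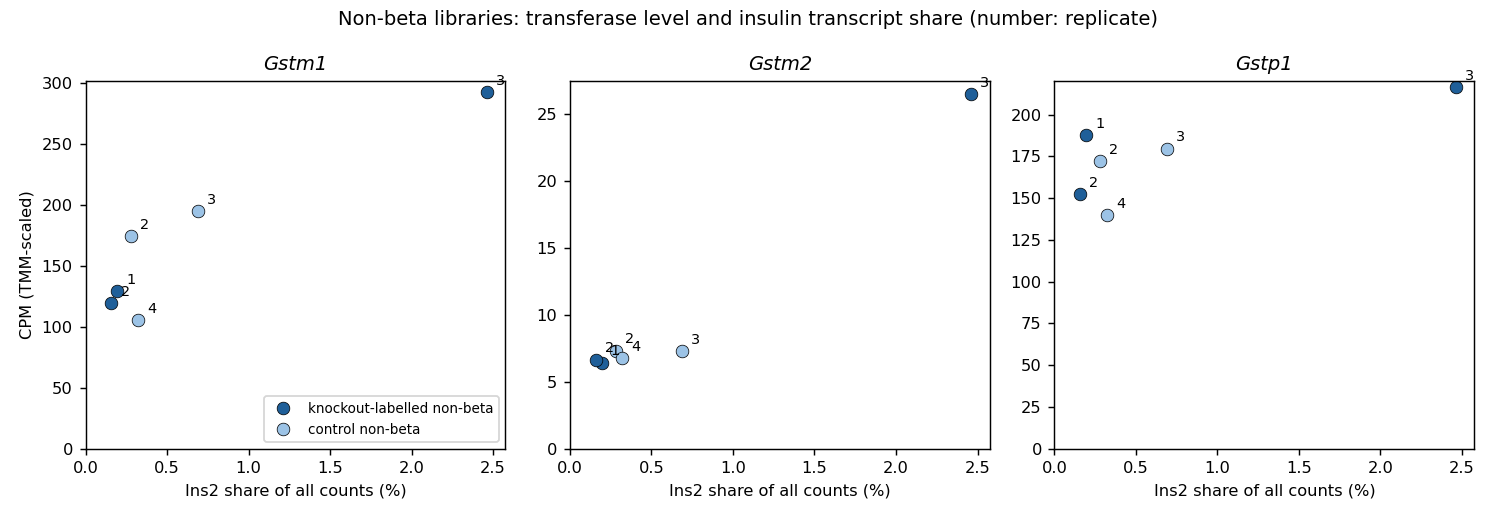
CPM of Gstm1, Gstm2 and Gstp1 in the 6 non-beta libraries against the Ins2 share of all counts in percent, with the replicate number beside each point. Knockout-labelled replicate 3, at 2.46 % Ins2, had the highest Gstm1 (292 CPM), Gstm2 (26.4 CPM) and Gstp1 (216 CPM).

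The difference of the label effect between fractions was tested directly, over 19942 genes, as the log2 fold change in beta cells minus that in non-beta cells. It passed for 0.928 % of all genes, upward for 0.612 % and downward for 0.316 %. Among the 10 glutathione S-transferase genes, 5 passed upward. The pi-class rows Gstp1, Gstp2 and Gstp-ps are among the 5 and may share reads, so they do not count as independent results. Gstp1 differed by 2.31 (SE 0.22, edgeR adjusted p = 0.000929), Gstp2 by 2.60 (SE 0.46, 0.0183), Gstp-ps by 2.36 (SE 0.23, 0.000929) and the summed pi-class row by 2.32 (SE 0.22, 0.00146). For Gsto1 the difference was 1.33 (SE 0.18, edgeR adjusted p = 0.00514). Gsta4 differed by 2.58 (SE 0.54, edgeR adjusted p = 0.0410), a call lost in 15 of 21 alternatives, with adjusted p up to 0.120. Without knockout-labelled replicate 3 of both fractions, an alternative chosen after seeing the data, the count was again 5 of 10, with Gstm1 in place of Gsta4.

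Gstm1 did not pass this test with all libraries, with a difference of 1.03 (SE 0.39, edgeR adjusted p = 0.271). It passed without knockout-labelled non-beta replicate 3, the library with 2.46 % Ins2, with a difference of 1.54 (edgeR adjusted p = 0.0151), and at 1.55 without replicate 3 of both fractions (0.0293). Gstk1, Gstt1, Mgst3 and Mgst1 did not pass, with differences of 0.38, 0.27, 0.12 and 1.18 and standard errors of 0.24, 0.19, 0.24 and 1.08. For these 4 genes the rise in beta cells, where there was one, is not shown to differ from the value in non-beta cells. Of all calls, 65.9 % were upward, and 85.3 % when counts were scaled by library totals, which moved the median of all genes to 0.13.

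**Figure D4:**
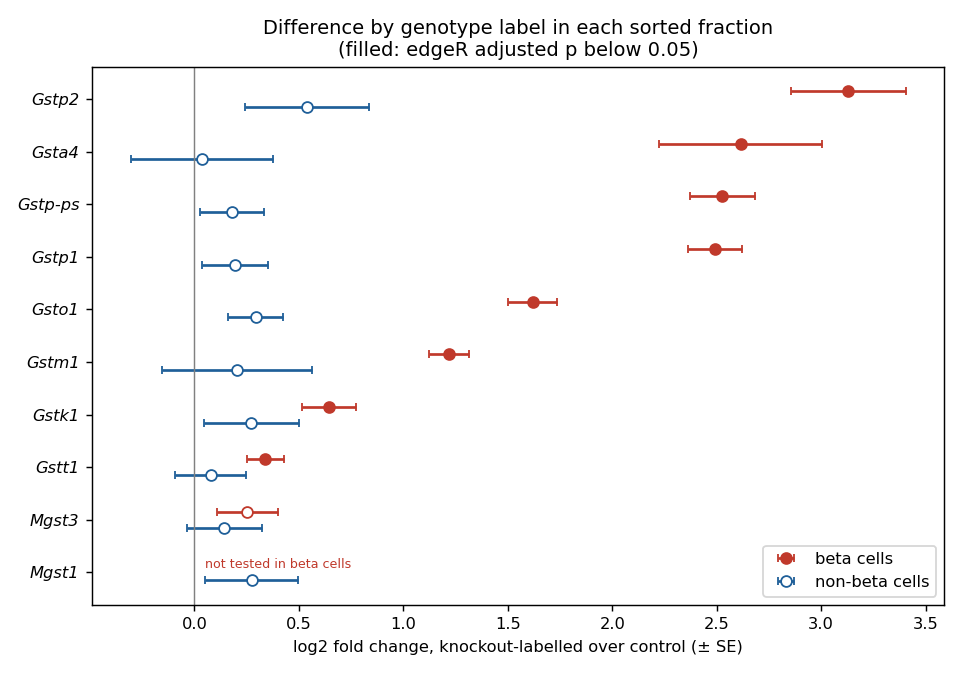
Log2 fold change (± SE) of knockout-labelled over control cells for each gene in beta cells and in non-beta cells, with filled points where the edgeR adjusted p was below 0.05. In beta cells values ran between 0.25 for Mgst3 and 3.13 for Gstp2, and in non-beta cells none passed.

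Between control beta cells and control non-beta cells, some of these transcripts differed and others did not pass. Of the 10 genes, 2 were higher and 3 lower in beta cells. In that comparison 53.5 % of 19014 genes changed, 24.8 % upward and 28.6 % downward. The counts of the 10 genes are near these shares, so they show nothing particular to the 10 genes. Of the 3 lower genes, Mgst1 and Gsta4 passed the count minimum through the non-beta libraries alone, so the count of lower genes is a description. In these bulk samples of a mixed fraction, fewer cells of a type and less RNA per cell cannot be told apart. Upward calls made up 46.5 % of all calls, and 36.0 % with scaling by library totals, which moved the median of all genes to −0.15; the same 2 genes were higher and the same 3 lower under both.

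Mgst1 marked the sharpest contrast: 1 count in all 4 control beta-cell libraries together, against 169, 117 and 120 counts in the 3 control non-beta libraries. At equal depth the non-beta level was 478 times the beta-cell level, with an exact 95 % counting interval of 85.3 to 18928 that covers counting error only. Under the knockout label, 3 counts in beta cells stood against 427 counts in non-beta cells, a ratio of 165 (56.1 to 803). Of those 3 counts, 2 were in replicate 3, the beta library with the most Gcg.

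Gsta4 was at 0.229, 0.229, 0.0726 and 0.304 CPM in control beta cells, against 2.02, 3.66 and 2.66 CPM in control non-beta cells, without overlap, as held downward for 28.7 % of genes (log2 fold change −3.71, SE 0.38, edgeR adjusted p = 2.73e-05). In controls it passed the count minimum through the non-beta libraries alone, so this call is not independent of its higher level there. In knockout-labelled cells the gap was smaller, with 1.63, 0.941 and 1.27 CPM in beta cells, against 4.07, 2.05 and 2.33 CPM in non-beta cells (log2 fold change −1.16, SE 0.34, edgeR adjusted p = 0.0257). That second call was lost without knockout-labelled beta replicate 2 or 3 or non-beta replicate 1 (edgeR adjusted p = 0.0920, 0.0632 and 0.105).

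Gstm1 and Gstk1 were beta-cell-rich in controls. Gstm1 averaged 454 ± 55.5 CPM (SD, n = 4) in control beta cells and 158 ± 46.9 CPM (n = 3) in control non-beta cells, a 2.83-fold difference (SE 0.20 on the log2 scale, edgeR adjusted p = 0.000163). For Gstk1 the means were 6.88 ± 0.818 CPM in control beta cells and 3.83 ± 0.635 CPM in control non-beta cells (log2 fold change 0.82, SE 0.17, edgeR adjusted p = 0.00295). Gsto1 was lower in control beta cells, at 25.2 ± 4.04 CPM, than in control non-beta cells, at 32.9 ± 3.84 CPM (log2 fold change −0.41, SE 0.14, edgeR adjusted p = 0.0345), a call lost without control beta replicate 2 or 4 or control non-beta replicate 2 (edgeR adjusted p = 0.0890, 0.0657 and 0.143).

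The summed pi-class row did not pass between control beta and control non-beta cells, at 184 ± 19.5 CPM in control beta cells and 189 ± 25.5 CPM in control non-beta cells (log2 fold change −0.05; interval of 2 SE to each side −0.30 to 0.19). Gstt1 (0.24, SE 0.14) and Mgst3 (0.0016, SE 0.17) did not pass either. Gstt1 passed without control non-beta replicate 3, at 0.40 (edgeR adjusted p = 0.0261).

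In knockout-labelled cells, 7 of the 10 genes were higher in beta than in non-beta cells and 2, Mgst1 and Gsta4, were lower, in a comparison where 42.6 % of 18775 genes changed, 19.1 % upward and 23.5 % downward. Mgst1 again passed the count minimum through the non-beta libraries alone. The pi-class rows among the 7 higher genes may share reads and are not independent results. The summed pi-class row averaged 1022 ± 182 CPM in knockout-labelled beta cells and 216 ± 32.6 CPM in knockout-labelled non-beta cells (log2 fold change 2.23, SE 0.18, edgeR adjusted p = 4.55e-05). Gsto1 had a log2 fold change of 0.89 (SE 0.11, edgeR adjusted p = 0.000396), opposite in sign to that in controls. Gstt1 was higher by 0.47 (SE 0.10, edgeR adjusted p = 0.00690), but not without non-beta replicate 1 (0.0566). Each of these contrasts shares its beta-cell or non-beta libraries with the contrasts by label above.

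Per kilobase of the deposited gene length, Gstm1 and Gstp1 were first and second in all 4 groups. This order depends on those lengths, such as 1548 bases for Gstp1 and 631 for Gstp-ps. In CPM alone, Gstm1 (999.99 to 1048) and Gstp1 (750 to 1038) overlapped in knockout-labelled beta cells. In non-beta cells Gstp1 then averaged 185 CPM under the knockout label and 164 in controls, and Gstm1 181 and 158. In knockout-labelled beta cells Gstm1 was at 696 ± 16.3 and Gstp1 at 568 ± 94.4 CPM per kilobase, ranges that did not overlap. Gstm1 was at 308 ± 37.7 and Gstp1 at 105 ± 10.4 CPM per kilobase in control beta cells, again apart. In both non-beta groups their ranges overlapped (means 123 and 120 under the knockout label, 107 and 106 in controls).

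Below them, the order changed with the label in beta cells. In knockout-labelled beta cells Gstp-ps came next at 149.6 CPM per kilobase, followed by Gstt1 at 55.9, Gstp2 at 42.7 and Gsto1 at 37.1, of which neighbours overlapped. In control beta cells Gstt1 came next at 45.6, then Gstp-ps at 26.9, then Mgst3 at 12.6 and Gsto1 at 12.4, which overlapped, and Gstp2 at 5.07 and Gstk1 at 4.69, which also overlapped. Gsta4 and Mgst1 were last in both, at 1.01 and 0.0142 in knockout-labelled and 0.165 and 0.00451 in control beta cells. The non-beta groups shared 1 order of means down to Gstk1, with Gstt1, Gstp-ps, Gsto1, Mgst3, Gstp2 and Gstk1 following Gstm1 and Gstp1. In control non-beta cells Gstt1 overlapped with Gstp-ps, Gsto1 with Mgst3 and Gstk1 with Gsta4, so their order there is not resolved. Mgst1 and Gsta4 overlapped with each other in both non-beta groups.

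Added over the 10 genes, the level was 1572 ± 123 CPM per kilobase in knockout-labelled beta cells (SD, n = 3) and 520.0 ± 58.2 in control beta cells (n = 4). It was 364 ± 87.7 in knockout-labelled and 322 ± 61.9 in control non-beta cells (n = 3 each). Within that sum, Gstp1 made up 33.2 to 39.4 % in knockout-labelled beta cells and 19.8 to 20.6 % in control beta cells. The Gstm1 share was 39.9 to 48.7 % in knockout-labelled beta cells and 58.1 to 60.1 % in control beta cells, although its own level was higher under the knockout label. Pi-class rows share sequence, so their single shares are less certain than their total.

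**Figure D5:**
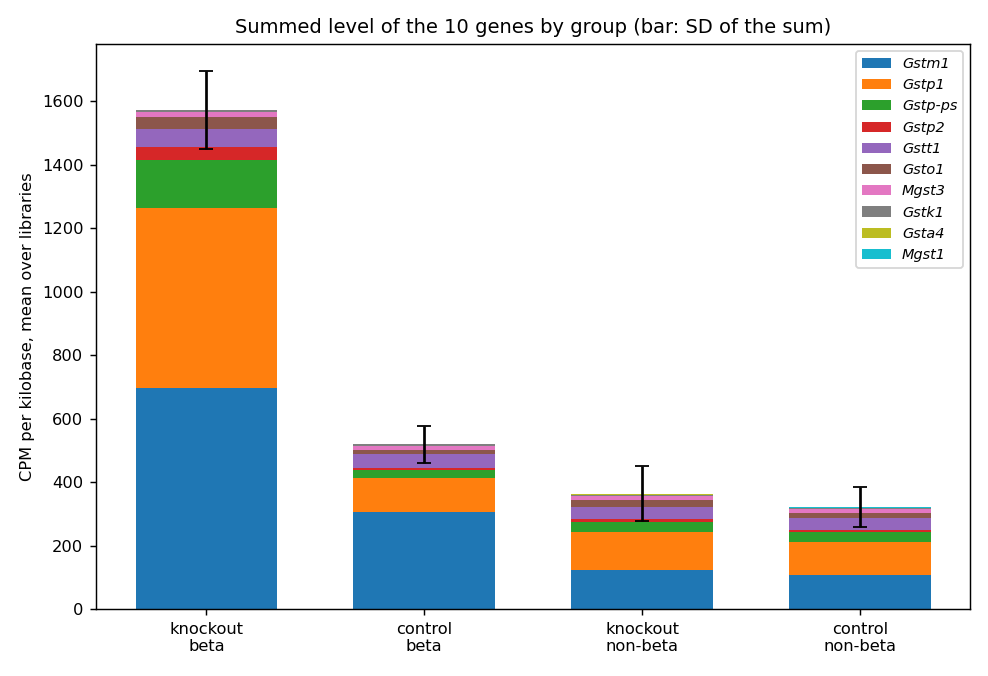
Mean level of the 10 genes in CPM per kilobase, stacked by gene for each group, with bars for the SD of the sum. The sum was 1572 in knockout-labelled beta cells and 520.0 in control beta cells, and Gstm1 and Gstp1 formed most of every bar.

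Among 23 further transferase and related membrane-enzyme genes in the table, 16 could be tested in beta cells. Of these, 5 were higher and 2 lower under the knockout label, with a median of 0.37. Over all genes tested, 10.1 % were higher and 9.97 % lower. In the mu-class cluster, Gstm2 averaged 130.4 ± 3.43 CPM in knockout-labelled beta cells and 62.5 ± 9.59 CPM in control beta cells (log2 fold change 1.10, SE 0.11, edgeR adjusted p = 0.000106). Gstm6 rose by 1.84 (edgeR adjusted p = 0.00280), the theta-class Gstt2 by 0.89 (0.000616) and the prostaglandin D synthase gene Hpgds by 0.41 (0.0194). Alox5ap, which presents arachidonate for leukotriene synthesis, fell by 0.48 (log2; edgeR adjusted p = 0.0371) and Gstz1, of tyrosine breakdown, fell by 0.25 (0.0454). The 6 macrophage markers together took 0.00907 to 0.0102 % of counts in knockout-labelled beta cells and 0.0108 to 0.0133 % in control beta cells, without overlap; 1 of the 3 that could be tested was called lower, at most 1 was at 0 in a library, and their part in the Alox5ap value was not tested. Gstm5 (0.27) and Ptges (−0.23) did not pass. Gsta1 was too scarce for the test, with 8, 10 and 6 counts in knockout-labelled beta cells, against 0 counts in all 4 control beta-cell libraries. Against a floor of 3 counts over the control group the ratio was 9.21. That ratio makes no allowance for counting error, so it is not a lower bound.

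The cosubstrate of the transferases is glutathione. Of 9 genes for its supply, 6 were higher in knockout-labelled than in control beta cells and none lower, with a median log2 fold change of 0.61. The shares of all genes tested were 10.1 % higher and 9.97 % lower. The cystine importer Slc7a11 stood at 11.7, 8.85 and 11.9 CPM in knockout-labelled beta cells, against 2.23, 1.28, 2.03 and 1.67 CPM in control beta cells (log2 fold change 2.63, SE 0.19, edgeR adjusted p = 1.56e-05). The glutamate-cysteine ligase subunits Gclc (1.24, SE 0.09) and Gclm (0.94, SE 0.11) and the importer's heavy chain Slc3a2 (0.72, SE 0.09) also rose, while the glutathione-degrading Chac1 (0.28) and Chac2 (−0.04) did not pass. Slc7a11, Gclc and Gclm were also called in the test of the difference between fractions (2.53, 1.37 and 0.84; edgeR adjusted p = 0.00681, 0.00514 and 0.0415).

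Of 13 tested genes for the export of conjugates and the mercapturate steps that trim them, 3 were higher and 2 lower. Among all genes tested 10.1 % were higher and 9.97 % lower, and counts this small are a description. The conjugate carrier Abcc4 rose by 0.60 (SE 0.09, edgeR adjusted p = 0.000939), the peptidase Lap3 by 0.40 (0.00241) and Kyat1 by 0.37 (0.0264). Anpep, the aminopeptidase that trims conjugates, fell by 0.62 (log2; edgeR adjusted p = 0.00466) and Kyat3 fell by 0.51 (0.0103). Ggt7 (−0.27) did not pass.

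Of 17 tested genes of other enzymes that clear electrophiles or aldehydes, 7 were higher and none lower, with a median of 0.21. Among all genes tested 10.1 % were higher and 9.97 % lower. The quinone reductase Nqo1 averaged 35.7 ± 7.39 CPM in knockout-labelled beta cells and 9.06 ± 1.32 CPM in control beta cells (log2 fold change 2.03, SE 0.16, edgeR adjusted p = 2.39e-05). Akr1b8, an aldo-keto reductase, rose by 1.62, the epoxide hydrolase Ephx1 by 1.38 and Esd by 1.16 (edgeR adjusted p = 0.0160, 1.18e-05 and 0.000349). Akr1a1 (0.04) and Hagh (−0.02) did not pass. Of 8 regulators of the NRF2 pathway 2 were higher, beside that share of all genes. They were Bach2, a repressor at these elements (1.70, SE 0.39, edgeR adjusted p = 0.0120), and the partner gene Mafg (0.33, SE 0.06, 0.00583). Nfe2l1 and Keap1 were near 0 (both 0.01). Bach2 was scarce, at 1.07 ± 0.520 CPM in knockout-labelled and 0.335 ± 0.0601 CPM in control beta cells. It averaged 2.21 CPM in knockout-labelled and 1.81 CPM in control non-beta cells, and the part of non-beta RNA in its values was not tested. In non-beta cells edgeR called none of the 66 tested genes of these 5 lists by label, and 4 had an unadjusted p below 0.05.

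Across the 13 libraries, the genes with levels most like the summed pi-class row, by Pearson correlation of log2 CPM among 12010 genes of at least 5 CPM, were Pir (r = 0.97), the heme transporter gene Slc48a1 (0.96), Mir692-3 (0.95), Gclm (0.95) and Tatdn3 (0.95). By rank, the Spearman correlations of these genes with the pi-class row were 0.64, 0.86, 0.67, 0.86 and 0.80 in that order, lowest for Pir. For Gsto1 the most alike genes by Pearson correlation were Thyn1 (0.97), Slc48a1 (0.95) and the proteasome receptor gene Adrm1 (0.93). Their Spearman correlations were 0.96, 0.91 and 0.88. These are descriptions over libraries that share groups, so the contrast of knockout-labelled beta cells with the rest enters each of them.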

How the data were processed

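The authors deposited raw counts per gene for 13 libraries and RPKM values beside them, per the file headers. Their pairwise tables hold log2 fold changes and p-values with false discovery rates, deposited without the design or filter. FastQC, STAR, edgeR and the build GRCm38.p6 are named in the submitters' processing notes, without versions; the counting program, its strand setting and the annotation release are not given in the sources used here, so reads shared by similar genes may be divided or dropped in a way that moves single pi-class values.

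Tests on the deposited counts used edgeR 4.0.16 under R 4.3.3 (filterByExpr, TMM, quasi-likelihood F test, Benjamini-Hochberg adjustment over all genes tested, threshold 0.05) on the libraries of each comparison. The difference between fractions was tested over all 13 libraries with 4 group means. CPM used TMM sizes over all libraries, and levels between genes were divided by the deposited gene length. DESeq2 1.42.0, RLE factors, library totals, other filters, a shared fit, a replicate block and the removal of single libraries were alternatives. The pipeline was tested on simulated data. RPKM values entered no test. Genes and lists were chosen with earlier results of these data known. Named list genes were the calls in beta cells with the largest change, up to 4 in each direction, and the 2 most abundant others. Gsta1 was named outside this rule. A result of the export list is not reported here.

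Deviations from the group means of same-numbered knockout-labelled and control beta libraries correlated at 0.32, 0.25 and 0.50 over 12016 genes. Of these 6 libraries, 4 correlated best with their own number. The titles give numbers alone and state no pairing, and the main tests used none. A replicate block by number was run as an alternative.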

Additional observations from a re-analysis of the deposited data

Results flagged for a closer look

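Mgst1 in control beta cells was singled out because 1 library stood far from the other 3: replicate 3 had 0.0363 CPM, which is 1 count, and the other libraries had 0. It was 1 of 11 groups of 4 libraries screened, and chance alone would single out about 1 in 20. A single count carries no information on a difference between libraries.

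The label effect differed between beta and non-beta cells, by the test of the difference itself, for Gstp1 (2.31 on the log2 scale), Gstp2 (2.60), Gstp-ps (2.36), the summed pi-class row (2.32), Gsto1 (1.33) and Gsta4 (2.58). In beta cells all 3 knockout-labelled libraries were above all 4 controls for each of these genes, as held for 12.7 % of all genes tested. The same libraries enter the test of the difference, so this is a description. Gsta4 passed the count minimum in beta cells through the knockout-labelled libraries alone. The 3 pi-class rows share sequence and may share reads, so they are not treated as 3 independent results. Gsta4 rests on 26 counts over the 4 control beta-cell libraries, and its call was lost in 15 of 21 alternatives.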

How the results depend on the processing

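Of 832 alternative values for tests of single genes and the summed pi-class row, 778 kept their direction and side of the threshold, 26 lost the call, 3 gained it and 25 changed sign, and no called value changed sign. The count of genes changed in beta cells was 1673 when all groups shared 1 fit, against 3525, and 1991 to 4117 without single libraries (1991, 2343 and 2218 without knockout-labelled beta replicate 1 or 2 or control beta replicate 2). In non-beta cells DESeq2 called 25 genes, no filter gave 1, the shared fit 3 and the replicate block 12. For the difference between fractions, against 185, DESeq2 called 557, the replicate block left 50, removal of control replicate 4 from both fractions left 90 and removal of single libraries gave 62 to 289. The block also ended the Gsta4 call there (edgeR adjusted p = 0.110). In beta cells by label it gave 3544 genes and changed no call of the 10 genes. As a hint from the data, 6 of 6 control libraries that share a number across fractions correlated best with their own number, against 4 of 6 knockout-labelled ones; the block there left 9494 and 7877 genes called, against 10163 and 7992.

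Signs that turned belonged to values that did not pass. In non-beta cells by label Gsta4 was −0.027 with library totals and −0.30 with the block, Gstt1 −0.017 with the block; without single libraries Gstm1 ran from −0.32 to 0.42, Gsta4 from −0.33 to 0.28 and Gstt1 from −0.080 to 0.24. Between control fractions Mgst3 was −0.024 with DESeq2 and with RLE factors, −0.13 with library totals, −0.0026 with the stricter filter, −0.10 with the block and −0.12 to 0.17 without single libraries. There, leaving out libraries also moved Gstp1 over −0.13 to 0.034, Gstp2 over −0.50 to 0.077 and the pi-class sum over −0.15 to 0.027. Mgst3 ran from −0.052 to 0.23 in the difference between fractions and from −0.050 to 0.16 between knockout-labelled fractions. The cause of these changes was not tested. Depth limits Mgst1 and Gsta4 in beta cells.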
